A study of Mus musculus with 10 samples.

Results

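A set of 10 genes that mature β cells keep low, or that are raised when β cells lose their identity, were described in islets of mice lacking FIT2 in β cells. They were the rows of the deposited expression table named Ldha, Slc16a1, Hk1, Acot7, Oat, Igfbp4, Rest, Aldh1a3, Neurog3 and Sox9, out of 47340 genes in all, and all 10 were found. FIT2 (gene Fitm2) is a protein of the endoplasmic reticulum needed to form lipid droplets. Islets came from 5 floxed control mice (FL), which carried the floxed Fitm2 alleles without the Cre transgene and are labeled wild type, and from 5 βFIT2KO littermates (KO), which carried the same floxed alleles together with a Cre transgene under the rat insulin promoter. All mice were male, 12 wk old and fed chow. Each library came from the islets of 1 mouse after overnight culture. Islets with Cre alone were not analysed here, so Cre itself and the loss of FIT2 cannot be told apart. The Cre acts in β cells, while whole islets were sequenced, so every value also holds RNA of the other cells of the islet and of attached exocrine tissue. In such bulk samples, fewer cells of a type and less RNA per cell cannot be told apart.

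Most tissues burn glucose to lactate when they need to and let lactate and pyruvate pass through the plasma membrane. Mature β cells silence parts of this machinery, among them lactate dehydrogenase A, the monocarboxylate transporter Slc16a1 and the high-affinity hexokinase Hk1, so that insulin release follows blood glucose and not circulating pyruvate or a low glucose level. Such genes are called disallowed. When β cells fail they can lose mature markers and take up features of progenitors, and Aldh1a3, Neurog3 and Sox9 are widely used to follow that change.

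Values are FPKM, that is, fragments scaled to the length of the transcript and to the size of the library, which are per length and can be compared between genes. The comparison of KO with FL was made with limma on log2(FPKM + 1). It covered the 13065 genes that averaged 1 FPKM or more in either group, and a gene was called at a Benjamini-Hochberg adjusted p of at most 0.05. Fitm2 itself was at 15.5 to 37.1 FPKM in FL and at 4.30 to 9.13 FPKM in KO, and the groups did not overlap. The sum of 7 acinar markers, from exocrine cells that remain on isolated islets, ranged from 3612 to 9058 FPKM in FL and from 2357 to 17322 FPKM in KO. It was highest in KO5, FL1 and FL2, so values whose call changes without these 3 libraries are also given without them. Of 11 β cell markers, Ins1, Ins2 and Iapp were listed at 0 in all 10 libraries, as was the α cell marker Gcg, and the sum of the others was 2484 to 3105 FPKM in FL and 1570 to 2236 FPKM in KO. Estimated from the spacing of low values, the deepest FL library was 2.40 times and the KO libraries 1.51 to 2.09 times as deep as the shallowest FL library.

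Promoters of 7 of the 10 genes were matched in RefSeq (GRCm38.p6) in 9 windows of 250 bases before to 50 bases after a transcript start, and Rest, Aldh1a3 and Sox9 were not. The windows of Oat, the gene that differed between the groups, and of Ldha, the gene with the highest level, are shown 5′ to 3′ on the strand of the gene. The Oat window lies at chr7:132576349-132576648 on the minus strand, and the first of the Ldha windows at chr7:46845554-46845853 on the plus strand. Capitals mark every match, on both strands, of CCAAT, of the GC box GGGCGG, of ACGTG, the core that hypoxia-inducible and E-box factors share, and of the cAMP response element TGACGTCA. CACGTG matches ACGTG on both strands and counts as a pair of overlapping matches.
Oat: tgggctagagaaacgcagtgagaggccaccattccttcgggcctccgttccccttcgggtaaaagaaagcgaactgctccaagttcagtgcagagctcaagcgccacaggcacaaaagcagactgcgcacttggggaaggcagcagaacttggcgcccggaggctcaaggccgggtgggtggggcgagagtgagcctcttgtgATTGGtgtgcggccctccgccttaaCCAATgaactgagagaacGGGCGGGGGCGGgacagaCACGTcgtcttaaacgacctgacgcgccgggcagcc
Ldha: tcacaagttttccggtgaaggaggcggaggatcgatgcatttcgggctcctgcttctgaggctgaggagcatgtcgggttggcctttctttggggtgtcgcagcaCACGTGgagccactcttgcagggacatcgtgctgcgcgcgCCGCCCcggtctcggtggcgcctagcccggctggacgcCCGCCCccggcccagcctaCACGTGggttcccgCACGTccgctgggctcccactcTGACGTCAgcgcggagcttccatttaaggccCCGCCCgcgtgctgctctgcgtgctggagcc
The Oat window held 2 matches of CCAAT, 2 of GGGCGG and 1 of ACGTG. This Ldha window held 3 matches of GGGCGG, 5 of ACGTG and 1 of TGACGTCA, and no CCAAT, and a further Ldha window, at chr7:46846832-46847131, held no match of any of them. Among 32851 promoter windows of the same length, CCAAT was present in 37.4%, GGGCGG in 35.7%, ACGTG in 19.6% and TGACGTCA in 1.79%. Of the 9 windows of the 10 genes, 2 held CCAAT, 4 GGGCGG, 4 ACGTG and 1 TGACGTCA. A match is a description of letters and was not tested for binding.

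Among the 10 genes, Oat rose in KO islets, and no other gene passed the test. Of the 6 genes that reached 1 FPKM in a group, 1 was called higher and 0 lower, where 25.5% of all tested genes were called, 9.05% of them as higher and 16.5% as lower. At an unadjusted p under 0.05 the counts were again 1 and 0, and no tool other than limma was run. The median log2 fold change of the 6 genes was 0.08, beside -0.06 for all genes tested. Slc16a1, Rest, Aldh1a3 and Sox9 had means under 1 FPKM in both groups, were not tested in that fit, and are given by their values, an exact permutation test and a fit without the filter. In that fit 12.6% of 24792 genes were called, and these 4 genes were not among them.

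**Figure D1:**
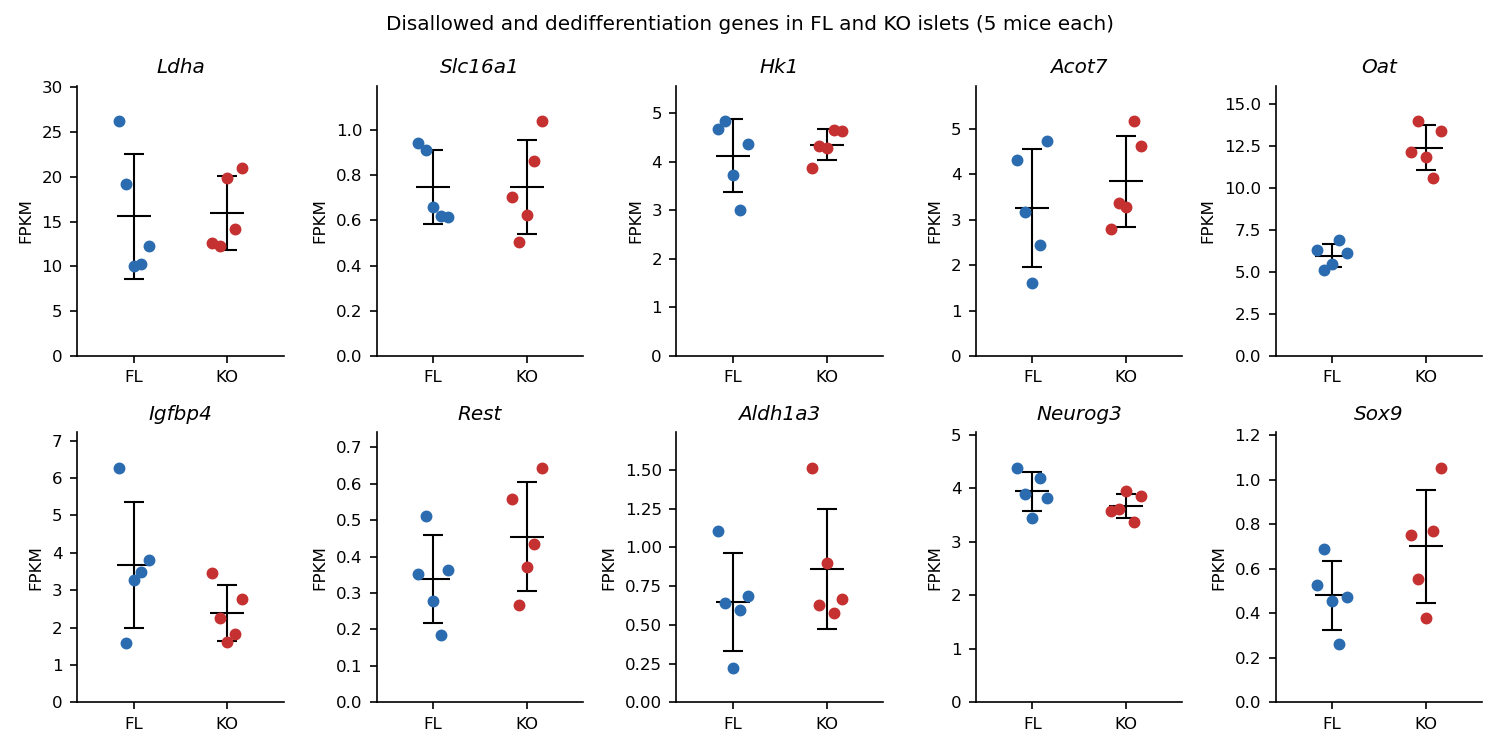
FPKM of each of the 10 genes in the 5 FL (blue) and 5 KO (red) islet libraries, 1 panel per gene with its own axis from 0; points are mice and bars the mean ± SD. Oat in KO (10.6 to 14.0 FPKM) lies above every FL library (5.12 to 6.91 FPKM), while FL and KO overlap in the other panels.

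Ldha makes the A subunit of lactate dehydrogenase, which turns pyruvate into lactate, and lies at chr7:46841475-46855627 on the plus strand (GRCm38, GENCODE M21). It was at 26.2, 19.1, 10.1, 10.2 and 12.3 FPKM in FL1 to FL5 and at 12.6, 12.3, 19.8, 14.2 and 21.04 FPKM in KO1 to KO5. The highest value of all was in an FL library, and the 2 groups covered much the same range. The mean was 15.6 ± 6.99 FPKM in FL against 15.99 ± 4.14 FPKM in KO (SD, n = 5). The log2 fold change was 0.10 ± 0.26 (SE), with a 95% interval from -0.47 to 0.66 (limma, adjusted p = 0.82), so the interval holds changes from 0.72-fold to 1.59-fold of FPKM + 1. Within FL the coefficient of variation was 44.9%, more than in 96.0% of tested genes. FL1, FL2 and KO5, the libraries with most acinar marker RNA, were 3 of the 4 highest for Ldha, and the other was KO3, in which those markers summed to 2393 FPKM. Without these 3 libraries the log2 fold change was 0.39 (limma, adjusted p = 0.137), and the part of exocrine RNA in it was not tested.

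Slc16a1 (MCT1) carries lactate and pyruvate across the plasma membrane. It was low in every library, at 0.943, 0.913, 0.657, 0.620 and 0.616 FPKM in FL1 to FL5 and at 0.704, 0.505, 0.623, 0.863 and 1.04 FPKM in KO1 to KO5. The means, 0.750 ± 0.164 and 0.747 ± 0.209 FPKM (SD, n = 5), differed by less than the spread within either group (exact two-sided permutation p = 0.984). From the spacing of low values, its FPKM stand for about 85 to 206 reads per library. Without the filter the log2 fold change was -0.01, with a 95% interval from -0.21 to 0.20. The highest values of Slc16a1 were in KO5, FL1 and FL2, the libraries highest in acinar markers. The part of exocrine RNA in these values was not tested.

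Partners of these genes in lactate handling moved in both directions. Ldhb, which makes the other main subunit of lactate dehydrogenase, fell from 12.0 ± 1.31 to 8.77 ± 0.609 FPKM (SD, n = 5), with a log2 change of -0.41 ± 0.07 (limma, adjusted p = 0.00278). Its groups did not overlap, as in 19.1% of all tested genes. The ratio of Ldha to Ldhb ranged from 0.740 to 2.504 in FL and from 1.33 to 2.60 in KO, and the groups overlapped. Of 19 genes listed for lactate and monocarboxylate handling, 17 were tested, 2 rose and 5 fell, or 41.2% called beside 25.5% of all genes, with a median log2 fold change of -0.19. With the 3 libraries highest in acinar markers left out, and so with fewer mice, 1 rose and 3 fell. Over all genes 764 were then called higher and 1260 lower, against 1183 and 2150 with all mice. Leaving out FL1, FL3, FL4, KO1, KO4 or KO5 also left 1 that rose. In the same KO libraries 7 of 8 tested β cell markers were called lower, beside 16.5% of all genes. There, 5 of 5 mesenchymal and 3 of 6 macrophage and leukocyte markers were called higher, beside 9.05% of all genes. Their part in these counts was not tested. Among the listed genes that fell was Bsg, the chaperone that brings Slc16a1 to the membrane, with a log2 fold change of -0.38 (556 ± 21.7 to 428 ± 23.9 FPKM, SD, n = 5). Pdk1, a kinase that restrains pyruvate dehydrogenase, fell with -0.57. Without the 3 libraries highest in acinar markers, Pdk1 stood at -0.51 and lost the call (limma, adjusted p = 0.11). Slc16a6, a ketone body transporter, rose with a log2 fold change of 0.50. The lactate exporter Slc16a3 was at 2.42 ± 1.25 FPKM in FL against 1.52 ± 1.11 FPKM in KO and was not called (SD, n = 5; limma, adjusted p = 0.269), and Slc16a7 was under 1 FPKM in both groups, at 0.926 and 0.870 FPKM.

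Hk1 is the high-affinity hexokinase that lets cells phosphorylate glucose at low concentrations. It was at 4.67, 4.84, 3.74, 3.003 and 4.38 FPKM in FL1 to FL5 and at 3.87, 4.32, 4.28, 4.65 and 4.64 FPKM in KO1 to KO5. All KO values lay inside the FL range. The gene lies at chr10:62268855-62379908 on the minus strand and shares 157 exon bases with the antisense gene Hk1os, which was at 0.0252 to 0.441 FPKM. The log2 fold change was 0.07 ± 0.10 (SE), with a 95% interval from -0.15 to 0.30 (limma, adjusted p = 0.636).

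Of 6 other hexokinase genes 3 were tested, and 2 of them rose, where 9.05% of all genes were called higher. Adpgk, an ADP-dependent glucokinase, rose from 8.87 ± 0.347 to 12.2 ± 0.468 FPKM (SD, n = 5), with a log2 change of 0.42 ± 0.04 (limma, adjusted p = 7.99e-05). Hk3, a hexokinase best known from white blood cells, rose from 0.725 ± 0.124 to 1.22 ± 0.159 FPKM (SD, n = 5) and passed the filter only through its level in KO. Its log2 fold change was 0.36, and with pseudocounts of 0.1 and 0.01 it was 0.68 and 0.75. Without the 3 libraries highest in acinar markers it was 0.30 and lost the call (limma, adjusted p = 0.121). The sum of 7 macrophage and leukocyte markers moved with it, at 131 to 155 FPKM in FL and 184 to 224 FPKM in KO, with 3 of 6 tested markers called higher, and its part in the value of Hk3 was not tested. Hk2 was under 1 FPKM, at 0.382 FPKM in FL against 0.469 FPKM in KO.

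**Figure D2:**
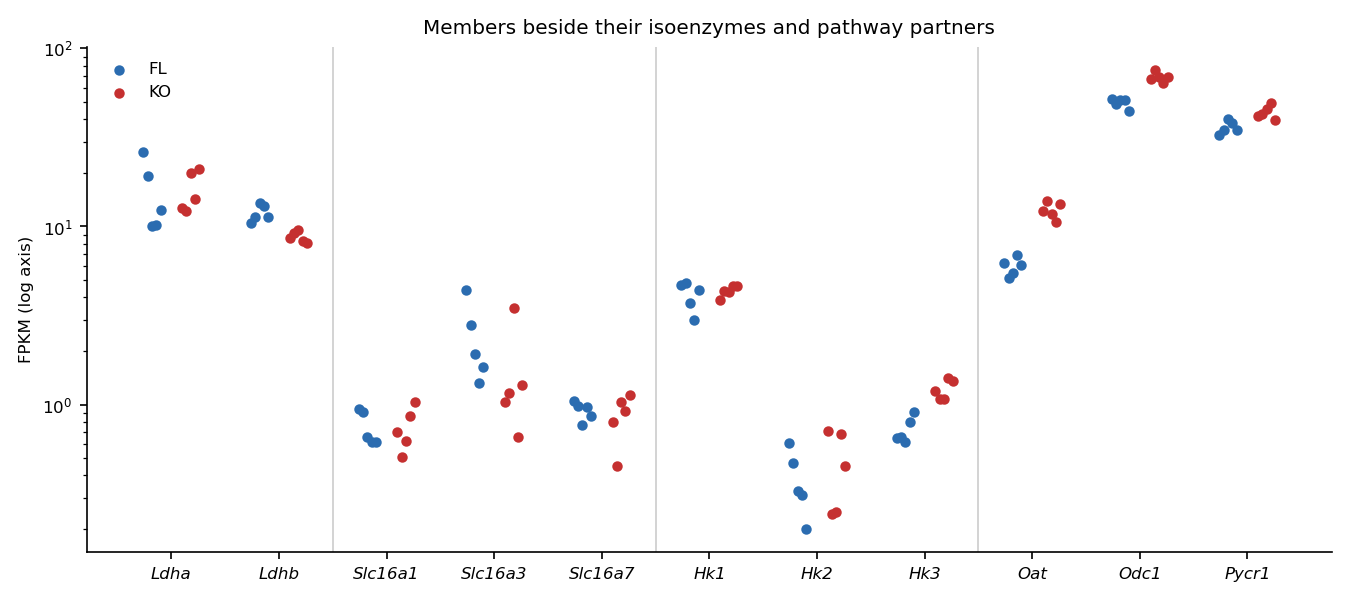
FPKM on a log axis of Ldha, Slc16a1, Hk1 and Oat, each followed by isoenzymes or pathway partners, in FL (blue) and KO (red); points are mice, 5 per group. Ldhb is lower in KO, while Oat, Odc1 and Hk3 are higher, Pycr1 is higher with overlapping groups, and Ldha, Slc16a1 and Hk1 overlap between the groups.

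Acot7 is a cytosolic thioesterase that releases fatty acids from long-chain acyl-CoA. It was at 4.33, 3.18, 1.604, 2.45 and 4.74 FPKM in FL1 to FL5 and at 2.79, 3.37, 3.28, 5.17 and 4.63 FPKM in KO1 to KO5. Only KO4 lay above the highest FL library. The log2 fold change was 0.22 ± 0.22 (SE), with a 95% interval from -0.26 to 0.70 (limma, adjusted p = 0.491). It was 0.06 without FL3, the lowest FL library, and 0.34 without FL5, the highest. Of 13 other thioesterase genes 8 were tested, 2 rose and 0 fell. The share that rose was 25%, beside 9.05% called higher among all genes (25.5% in either direction). The list had a median of -0.03 that turned to 0.02 when libraries were rescaled by the median ratio. Acot9, a mitochondrial family member, rose from 8.80 ± 0.692 to 11.1 ± 0.666 FPKM (SD, n = 5), with a log2 change of 0.31. Acot12, an acetyl-CoA hydrolase best known from liver, rose from 0.135 ± 0.0473 to 1.55 ± 0.344 FPKM (SD, n = 5) and passed the filter only through KO. Acot2, the mitochondrial long-chain enzyme, was at 2.72 and 2.40 FPKM and was not called, and Acot1 was at 0.554 and 0.563 FPKM.

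Oat, ornithine aminotransferase, is a mitochondrial enzyme that converts ornithine toward glutamate and proline. It was at 6.28, 5.12, 5.46, 6.91 and 6.10 FPKM in FL1 to FL5 and at 12.1, 14.0, 11.8, 10.6 and 13.4 FPKM in KO1 to KO5. All 5 KO libraries lay above all 5 FL libraries, as was the case in 6.67% of tested genes. The mean rose from 5.97 ± 0.704 to 12.4 ± 1.34 FPKM (SD, n = 5), which is 2.07-fold. The log2 fold change was 0.94 ± 0.09 (SE), with a 95% interval from 0.75 to 1.13 (limma, adjusted p = 2.8e-05), and the exact two-sided permutation p was 0.00794, the smallest that 5 against 5 mice can give. Oat lay below every value of Ldha in FL (10.1 FPKM at the lowest), while in KO the ranges of Oat (10.6 to 14.0 FPKM) and Ldha (12.3 to 21.04 FPKM) overlapped.

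The level of Oat was set beside the acinar marker sum of each library. KO2 and KO3, with the lowest acinar marker sums of all 10 libraries (2357 and 2393 FPKM), had Oat at 14.0 and 11.8 FPKM, and KO5, with the highest sum, had it at 13.4 FPKM. Without KO5, FL1 and FL2 the log2 fold change was 0.87, and across all alternatives it lay between 0.87 and 1.05 (limma, adjusted p from 1.1e-05 to 0.0019). The sum of 8 mesenchymal markers also separated the groups, at 12.6 to 21.3 FPKM in FL and 25.1 to 35.3 FPKM in KO, with 5 of 5 tested markers called higher, where 9.05% of all genes were, and so did the macrophage and leukocyte sum. The part of acinar, mesenchymal and leukocyte RNA in the value of Oat was not tested. The gene lies at chr7:132557478-132576398 on the minus strand (GRCm38, GENCODE M21), inside the span of Fgfr2 on the same strand, and the annotation gives them no shared exon bases. Fgfr2 was at 0.248 to 0.860 FPKM in FL and at 1.17 to 2.29 FPKM in KO.

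**Figure D3:**
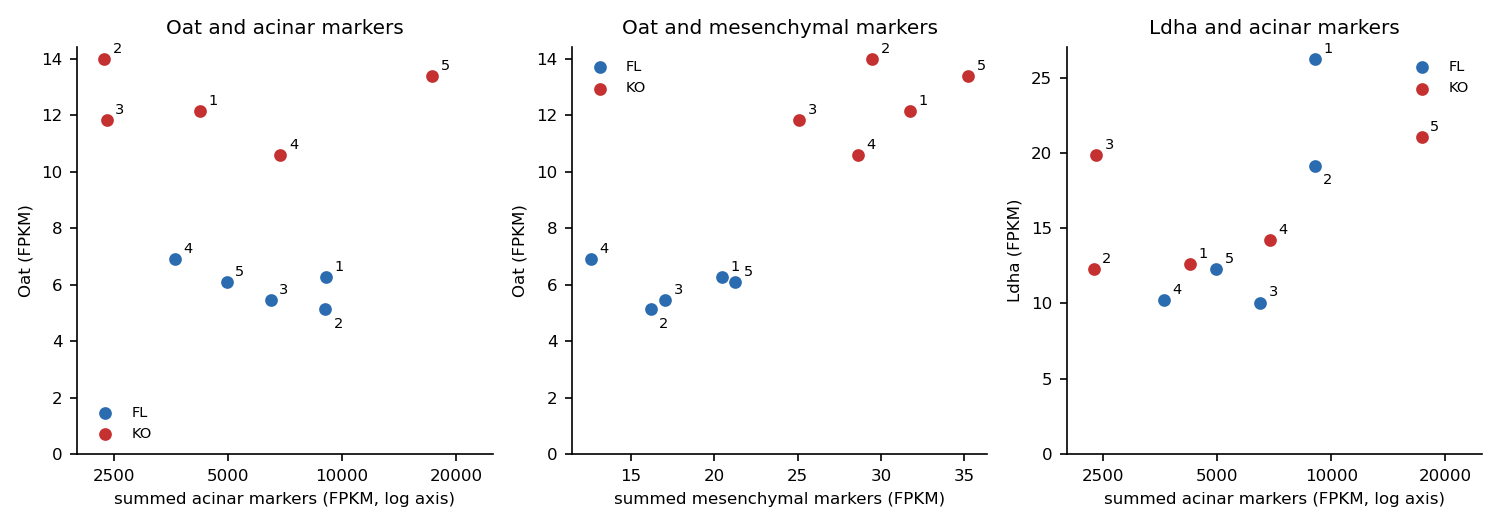
Oat against the summed FPKM of 7 acinar markers (log axis) and of 8 mesenchymal markers, and Ldha against the acinar sum, with 1 point per mouse, numbered by replicate, in FL (blue) and KO (red). Oat separates FL from KO at low and at high acinar sums, KO libraries have both higher Oat and higher mesenchymal sums, and the highest Ldha value, 26.2 FPKM, is in FL1.

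Of 15 listed genes of ornithine and proline metabolism 11 were tested, 2 rose and 1 fell, a share of 27.3% that is near the 25.5% called among all genes, with a median of -0.02 that turned to 0.03 after rescaling by the median ratio. Odc1, which takes ornithine into polyamine synthesis, rose from 49.5 ± 3.13 to 69.0 ± 4.23 FPKM (SD, n = 5), with a log2 change of 0.47 ± 0.06 (limma, adjusted p = 0.000233). Pycr1, a reductase that completes proline synthesis, rose from 36.1 ± 3.05 to 44.0 ± 3.74 FPKM (SD, n = 5), with overlapping groups and a log2 fold change of 0.28. Pycr1 stood at 0.25 and lost the call without the 3 libraries highest in acinar markers (limma, adjusted p = 0.0692). Oaz1, an antizyme that sends ornithine decarboxylase to degradation, fell with a log2 fold change of -0.23. Under quantile normalization it was -0.13 and lost the call (limma, adjusted p = 0.102), while with the replicate number as a block it stayed at -0.23 and lost the call (limma, adjusted p = 0.0662). The ratio of Oat to Odc1 was 0.104 to 0.138 in FL and 0.165 to 0.193 in KO, so Oat changed by more than Odc1 in proportion.

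Igfbp4 is a secreted protein that binds insulin-like growth factors. It was at 6.28, 1.59, 3.28, 3.49 and 3.80 FPKM in FL1 to FL5 and at 3.47, 2.27, 1.62, 1.83 and 2.75 FPKM in KO1 to KO5. The highest and the lowest value were both in FL. The log2 fold change was -0.42 ± 0.24 (SE), with a 95% interval from -0.95 to 0.11 (limma, adjusted p = 0.233). The value rested on single FL libraries. Without FL2, which had the lowest value, the log2 fold change was -0.61 and Igfbp4 was called lower (limma, adjusted p = 0.046), and without FL1, which had the highest, it was -0.24 (limma, adjusted p = 0.441). Of 11 genes for other binding proteins and their proteases, 6 were tested, 2 rose and 1 fell, or 50% called beside 25.5% of all genes. In the same KO libraries 5 of 5 tested mesenchymal, 3 of 6 endothelial and 3 of 6 macrophage and leukocyte markers were called higher, beside 9.05% of all genes, and their part in these values was not tested. Igfbp5 rose from 46.6 ± 4.62 to 174 ± 30.4 FPKM (SD, n = 5), with a log2 change of 1.86 ± 0.11 (limma, adjusted p = 1.23e-06), and Igfals, which holds the growth factors in a complex in blood, rose with 1.00. Pappa2, a protease that cleaves binding proteins, fell with -0.41. Igfbp3 was at 35.3 ± 14.7 and 44.0 ± 12.0 FPKM and Igfbp7 at 161 ± 17.9 and 157 ± 20.1 FPKM in FL and KO (SD, n = 5), and neither was called with all libraries. Without the 3 libraries highest in acinar markers, Igfbp3 was called higher, with a log2 fold change of 0.77 (limma, adjusted p = 0.0434).

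Rest encodes a repressor that keeps neuronal genes silent outside neurons and endocrine cells, and many genes of secretion are freed by its absence from β cells. It had the lowest level of the 10 genes, at 0.353, 0.510, 0.277, 0.186 and 0.365 FPKM in FL1 to FL5 and at 0.559, 0.267, 0.370, 0.435 and 0.644 FPKM in KO1 to KO5. KO1 and KO5 lay above the highest FL library and the others inside the FL range. The mean was 0.338 ± 0.120 FPKM in FL against 0.455 ± 0.149 FPKM in KO (SD, n = 5; exact two-sided permutation p = 0.198). Without the filter the log2 fold change was 0.12, with a 95% interval from -0.06 to 0.30.

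All 12 listed REST cofactors were tested, and 2 fell, which at 16.7% is near the 16.5% called lower among all genes, with a median of -0.10. Rcor3, a corepressor, fell from 21.8 ± 1.19 to 17.0 ± 0.987 FPKM (SD, n = 5), with a log2 change of -0.34. Rcor2, of the same family, fell with -0.65. With fewer samples, without the 3 libraries highest in acinar markers, it stood at -0.68 and lost the call (limma, adjusted p = 0.0537). All 17 listed REST target genes were tested as well, of which 6 fell and 2 rose, or 47.1% called beside 25.5% of all genes, with a median of -0.15. The median was -0.10 after rescaling by the median ratio and -0.06 under quantile normalization, where that of all genes was -0.01 and -0.02. With the 3 libraries highest in acinar markers left out, and so with fewer mice, 5 fell and 2 rose. Over all genes 1260 were then called lower and 764 higher, against 2150 and 1183 with all mice. The β cell marker sum was lower in the same libraries, at 2484 to 3105 FPKM in FL and 1570 to 2236 FPKM in KO, with 7 of 8 tested markers called lower beside 16.5% of all genes, and its part in this count was not tested. Gjd2, the gap junction protein connexin 36 that couples β cells, fell from 128 ± 9.44 to 68.1 ± 4.28 FPKM (SD, n = 5), with a log2 change of -0.90 ± 0.06 (limma, adjusted p = 3.56e-06). Syt7, a calcium sensor of exocytosis, fell with -0.34, and Mapk8ip1, a scaffold of the JNK pathway, with -0.32. Nefm, a neurofilament subunit, rose with 0.55.

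Aldh1a3 makes retinoic acid from retinaldehyde and is raised in failing β cells. It was at 1.11, 0.640, 0.220, 0.596 and 0.685 FPKM in FL1 to FL5 and at 1.51, 0.631, 0.902, 0.577 and 0.668 FPKM in KO1 to KO5. The first library of each group held its highest value, and 4 of the 5 KO libraries lay inside the FL range. The mean was 0.650 ± 0.315 FPKM in FL against 0.858 ± 0.387 FPKM in KO (SD, n = 5; exact two-sided permutation p = 0.437). Without the filter the log2 fold change was 0.17, with a 95% interval from -0.19 to 0.54. Leaving out 1 library moved it between 0.06, without KO1, and 0.26, without FL1, and it was 0.07 without FL3. The related Aldh1a1 was at 0.400 and 0.829 FPKM and Aldh1a2 at 0.128 and 0.232 FPKM in FL and KO, all under the filter.

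Of 19 listed genes of the retinoic acid pathway 9 were tested, 2 rose and 0 fell. The share that rose was 22.2%, beside 9.05% called higher among all genes (25.5% in either direction). The list had a median of -0.02 that turned to 0.02 after rescaling by the median ratio, with 9 genes tested. After rescaling to the same sum it was 0.08, but 10 genes then passed the filter, so the medians cover unlike sets. Of the genes that rose 1 passed the filter only through KO. Dhrs3, a reductase that turns retinaldehyde back into retinol, rose from 4.42 ± 0.616 to 6.57 ± 0.726 FPKM (SD, n = 5), with a log2 change of 0.48 (limma, adjusted p = 0.00293).

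Neurog3 is the transcription factor that starts the endocrine fate in the developing pancreas. It had the smallest coefficient of variation of the 10 genes in both groups (9.24% and 6.27%), at 4.38, 3.89, 3.44, 4.19 and 3.81 FPKM in FL1 to FL5 and at 3.58, 3.60, 3.94, 3.37 and 3.85 FPKM in KO1 to KO5. KO4 alone lay below the lowest FL library. The log2 fold change was -0.08 ± 0.07 (SE), with a 95% interval from -0.23 to 0.07 (limma, adjusted p = 0.413), which bounds a change between 0.853-fold and 1.05-fold of FPKM + 1. The gene lies at chr10:62133090-62134763 on the plus strand (GRCm38, GENCODE M21) and shares 273 exon bases with Fam241b on the other strand. Fam241b was at 28.7 to 38.4 FPKM, far above Neurog3, and the libraries were stranded but the use of strand in counting is not given in the sources used here. If strand was not used, reads of these genes cannot be told apart. The level of Neurog3, its change and the bounds above are then uncertain.

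Several factors that act with or after Neurog3 were lower in KO. Of 16 listed genes of Notch signaling and the endocrine progenitor cascade 15 were tested, 8 fell and 3 rose, or 73.3% called beside 25.5% of all genes, with a median of -0.31. Among the genes that rose 1 passed the filter only through KO. The rises depended on the setting. Leaving out the 3 libraries highest in acinar markers, with fewer mice, gave 6 that fell and 0 that rose. Over all genes 1260 were then called lower and 764 higher, against 2150 and 1183 with all mice. Quantile normalization and the replicate number as a block each left 1 that rose. With a filter of 5 FPKM only 12 genes of the list were tested, and 0 of them rose. Among those that fell, Nkx2-2 went from 147 ± 9.63 to 96.8 ± 11.0 FPKM (SD, n = 5), with a log2 change of -0.60 ± 0.08 (limma, adjusted p = 0.000353), and Insm1 went from 133 ± 8.60 to 92.2 ± 7.60 FPKM (SD, n = 5) with -0.52. Pax6, which keeps endocrine genes active, fell with -0.40, and without the 3 libraries highest in acinar markers it stood at -0.36 and lost the call (limma, adjusted p = 0.0637). The Notch ligand Dll1 had a log2 fold change of -0.71, from 5.87 ± 0.980 to 3.23 ± 0.839 FPKM (SD, n = 5). Hes1, the Notch effector that represses Neurog3, was at 9.66 ± 1.88 and 10.2 ± 1.53 FPKM (SD, n = 5) and was not called, and Pax4 was listed at 0 in all libraries. Of the 8 β cell markers above 0, 7 fell as well, beside 16.5% of all genes, so the lower level of these factors moved with that of mature β cell genes.

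Sox9 marks pancreatic progenitors and, in the adult, duct cells. It was at 0.528, 0.688, 0.453, 0.260 and 0.474 FPKM in FL1 to FL5 and at 0.750, 0.554, 0.377, 0.770 and 1.05 FPKM in KO1 to KO5. In 3 of the 5 KO libraries it lay above the highest FL library. These were KO5, KO4 and KO1, with acinar marker sums of 17322, 6880 and 4227 FPKM, the highest in KO. In FL its highest values were in FL2 and FL1, the FL libraries highest in acinar markers. The part of exocrine RNA in Sox9 was not tested. The mean was 0.481 ± 0.154 FPKM in FL against 0.701 ± 0.254 FPKM in KO (SD, n = 5; exact two-sided permutation p = 0.143). Without the filter the log2 fold change was 0.19, with a 95% interval from -0.05 to 0.44, and the values stand for about 33 to 195 reads per library. The sum of 8 ductal markers, Sox9 among them, was 641 to 715 FPKM in FL and 538 to 723 FPKM in KO, and the groups overlapped. The sum holds markers that moved in opposite directions. Of these markers 7 were tested, 1 was called higher and 1 lower, beside 9.05% and 16.5% of all genes. Their log2 fold changes ran from -0.48 to 1.59, and 1 marker passed the filter only through KO. Of 14 listed SOX9 partners and ductal factors 10 were tested and 2 fell, a share of 20% beside 16.5% called lower among all genes. Foxa2, a pioneer factor of endoderm, fell from 54.0 ± 4.002 to 37.0 ± 1.43 FPKM (SD, n = 5), with a log2 change of -0.53 ± 0.06 (limma, adjusted p = 6.97e-05), and Prom1, a membrane protein of ductal and progenitor cells, fell with -0.60.

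**Figure D4:**
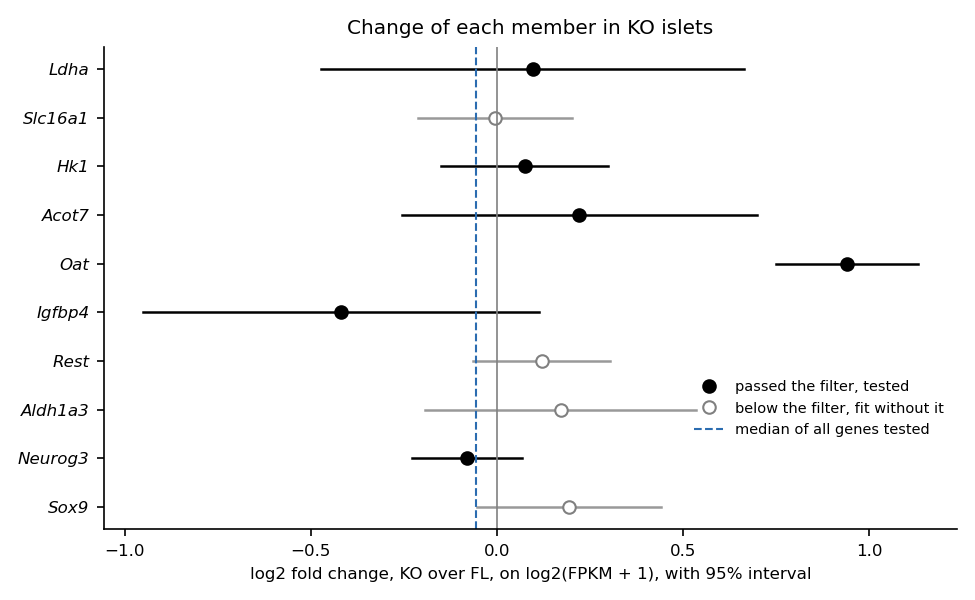
Log2 fold change of KO over FL on log2(FPKM + 1) with its 95% interval for each of the 10 genes; filled points passed the filter of 1 FPKM and were tested, open points come from the fit without it, and the dashed line is the median of all genes tested, -0.06. Oat stands at 0.94 with an interval from 0.75 to 1.13, and the intervals of the other genes include 0.

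The list of other genes named as disallowed in β cells held more called genes that rose than that fell. Of 24 further disallowed genes 21 were tested, 9 rose and 1 fell, with a median log2 fold change of 0.23, beside 9.05% and 16.5% and a median of -0.06 over all genes. Without the 3 libraries highest in acinar markers, and so with fewer mice, 4 rose and 0 fell, with a list median of 0.26. Over all genes 764 were then called higher and 1260 lower, against 1183 and 2150 with all mice. Mgst1, a microsomal glutathione transferase, rose from 6.59 ± 1.67 to 16.5 ± 2.83 FPKM (SD, n = 5), with a log2 change of 1.22 ± 0.15 (limma, adjusted p = 0.000197). Igf1, insulin-like growth factor 1, rose from 0.966 ± 0.293 to 3.21 ± 0.668 FPKM (SD, n = 5), and it and Cd302 passed the filter only through KO. Parp3, an ADP-ribosyltransferase of DNA repair, rose with 0.66. Tgm2, a transglutaminase, rose with 0.63, but its groups overlapped and it lost the call in 9 of the 23 alternatives, among them those without FL2, FL3, FL4, FL5, KO1, KO2 or KO5 (limma, adjusted p from 0.00535 to 0.0861). Where the call was lost its log2 fold change lay between 0.53 and 0.66, and it was 0.66 without the 3 libraries highest in acinar markers (limma, adjusted p = 0.0861). Pdgfra stands both on this list and among the mesenchymal markers, so they are not fully separate. Macrophage, mesenchymal and endothelial markers were higher in KO too, the last at 160 to 186 FPKM in FL and 179 to 243 FPKM in KO with 3 of 6 tested markers called higher. Their part in these counts was not tested.

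Of 9 further dedifferentiation and progenitor genes 5 were tested, 1 rose and 0 fell. The share that rose was 20%, beside 9.05% called higher among all genes (25.5% in either direction). The gene that rose was Cd81, a tetraspanin, which went from 75.2 ± 7.96 to 94.1 ± 8.80 FPKM (SD, n = 5), with a log2 change of 0.32 (limma, adjusted p = 0.0172). It stood at 0.30 and lost the call without the 3 libraries highest in acinar markers (limma, adjusted p = 0.0581). The stem cell factor Pou5f1 was listed at 0 in all libraries. Over the 12 lists together, 133 of 174 genes were tested, 27 rose and 26 fell, or 39.8% called beside 25.5% of all genes. Over all genes 9.05% were called higher and 16.5% lower. The lists had a median of -0.05, and 6 of the 133 genes passed the filter only through KO and 1 only through FL. Without the 3 libraries highest in acinar markers, and so with fewer mice, 16 rose and 19 fell. Over all genes 764 were then called higher and 1260 lower, against 1183 and 2150 with all mice.

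**Figure D5:**
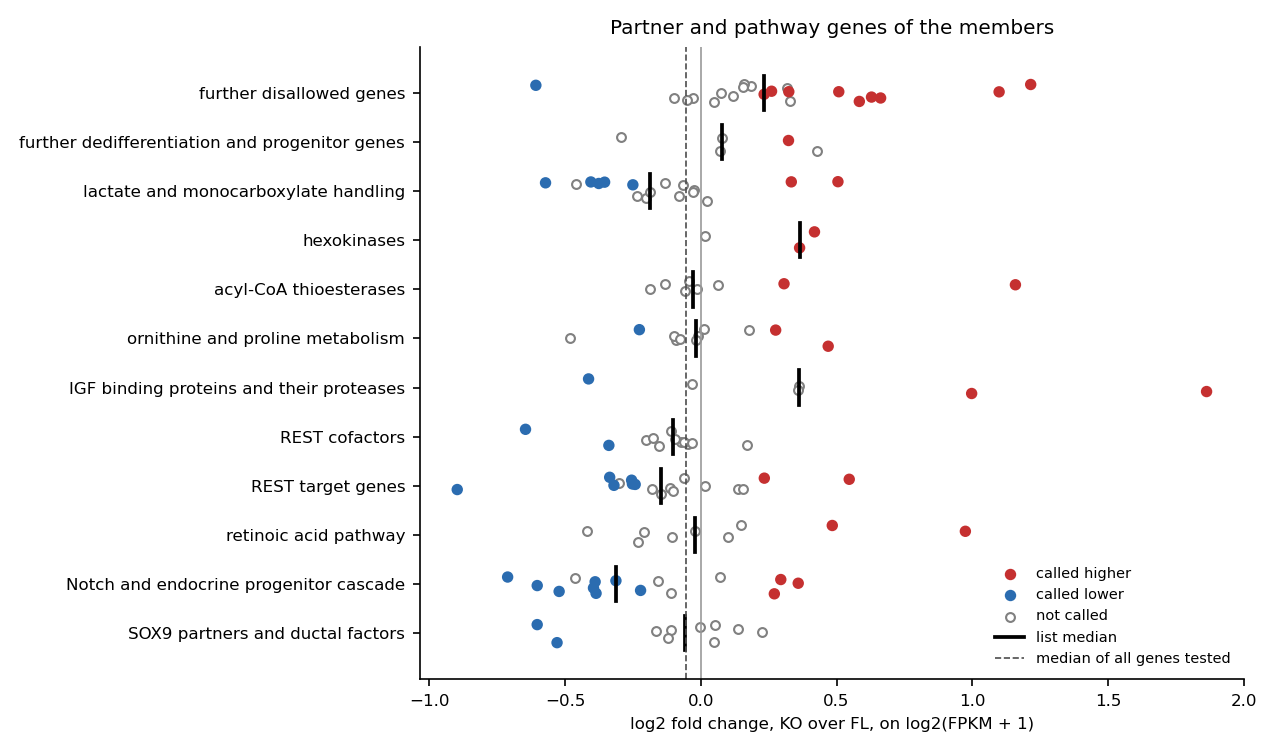
Log2 fold change of KO over FL on log2(FPKM + 1) of the tested genes of 12 lists; red points were called higher, blue points called lower and open points not called, black bars are list medians and the dashed line is the median of all genes tested. Further disallowed genes have a median of 0.23 and the endocrine progenitor cascade a median of -0.31.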

How the data were processed

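Islet RNA of 10 mice was sequenced from polyA-selected, stranded libraries as single reads of 75 bases. The authors deposited 1 table of FPKM per gene and mouse. The submitters' processing notes name STAR 2.5.2a and Cuffnorm 2.2.1 and the builds mm10 and GRCm38. Raw counts were not used here, and 22548 of 47340 genes are at 0 in all libraries. An exact 0 can be a failed estimate, since insulin genes are at 0 too. The spacing of low FPKM gave an estimate of relative depth, which cannot replace read counts, so no counting intervals are given.

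Samples were grouped by the titles in their labels. The test of KO against FL used limma 3.58.1 (R 4.3.3; lmFit, eBayes with a trend, no covariate) on log2(FPKM + 1) for genes that averaged 1 FPKM or more in a group. A fold change on this scale understates the change of low genes. Benjamini-Hochberg adjustment ran over all 13065 genes tested, and the script was tested on simulated data. Single genes were also compared by exact two-sided permutation of the 5 and 5 mice. The p-values measure the spread between mice. Summaries used Python 3.11.15, pandas 2.3.3, numpy 2.4.6, scipy 1.17.1 and matplotlib 3.10.9.

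The 10 genes and the 12 lists were chosen with earlier results of these data known. Of each list, up to 4 called genes with the largest change were named, with direct partners or isoforms of the 10 genes whatever their test. For each tested gene of the 10, the 3 genes with the most similar pattern were also named. A pair of genes that the rule names is not reported here, though counts and medians of lists include them. Pycr3 was not found under that name. Alternatives were other pseudocounts (0.1 and 0.01), no filter or one of 5 FPKM, 3 rescalings, 3 other limma settings, the replicate number as a block, a change of 1.5-fold, and each mouse left out. The exclusion of the 3 libraries highest in acinar markers was added after seeing the data.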

Additional observations from a re-analysis of the deposited data

Results flagged for a closer look

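Of 106 groups of 5 values (54 genes in FL and in KO, less the 2 groups of Pax4, which is at 0 in all libraries), 2 held a library whose gap to its nearest neighbor was above the critical share of the group's range, where chance flags about 1 in 20, or 5.3. Slc16a3 in KO3 was at 3.47 FPKM with the next KO library at 1.29 FPKM, a gap of 0.774 of the range. Igf1 in FL4 was at 0.472 FPKM with the next FL library at 0.991 FPKM, a gap of 0.716 of the range. None of the 10 disallowed and dedifferentiation genes had such a library.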

How the results depend on the processing

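Oat was called higher under all 23 alternatives. The number of the 10 genes called lower was 0 to 1 when single mice were left out, through Igfbp4 without FL replicate 2. Requiring a 1.5-fold change as well, 349 genes were higher and 290 lower, against 1183 and 2150 at the adjusted p alone, and of the listed pathway genes 8 were higher and 6 lower. Without the 3 libraries highest in acinar markers, with fewer samples, 764 genes were higher and 1260 lower, and of the pathway genes 16 were higher. With a filter of 5 FPKM, which tests fewer genes, 15 pathway genes were higher. The share of calls that were higher was 35.5%, against 47.8% after rescaling by the median ratio (1546 higher and 1685 lower), 48.9% after rescaling to the same sum (1470 and 1536) and 46.7% under quantile normalization (1494 and 1708). Rescaling by the median ratio moved the median of all genes from -0.06 to -0.01. It moved the median of REST cofactors from -0.10 to -0.06 and that of lactate handling from -0.19 to -0.14. Directions that reversed belonged to genes that were not called, and the cause was not tested. When single mice were left out, Ldha ranged from -0.027 to 0.30, Hk1 from -0.012 to 0.12 and Igfbp7 from -0.10 to 0.019. Hes1 was -0.039 with sample weights and -0.069 without the 3 libraries highest in acinar markers. Igfbp7 was 0.015 after rescaling by the median ratio, 0.010 after rescaling to the same sum and 0.019 under quantile normalization. With the replicate number as a block, 874 genes were higher and 1494 lower, and Oat kept a log2 fold change of 0.94 (limma, adjusted p = 0.0019). Deviations of same-numbered libraries correlated at -0.10 to 0.003, so no shared deviation was seen. This cannot show whether same-numbered mice were paired, and the sample titles give only replicate numbers. In lists with 0 to 3 calls in a direction, leaving out a mouse moved some counts by 1 or 2 genes. In the endocrine progenitor cascade 3 genes rose, but 1 without FL3, FL5, KO1 or KO5, and in the retinoic acid pathway 2 fell without KO2. Of the REST target genes 1 and not 2 rose without FL1, FL3, FL4, FL5, KO1, KO2, KO3 or KO4. Leaving out single mice, Rest ranged from 0.07 to 0.17 and Sox9 from 0.12 to 0.27. With pseudocounts of 0.1 and 0.01 the log2 differences of low genes grew, to 0.45 and 0.52 for Sox9, up to 0.43 for Rest and up to 0.47 for Aldh1a3. Among called genes, Hk3 grew up to 0.75 and Parp3 up to 1.01. Low FPKM limit Slc16a1, Rest, Aldh1a3 and Sox9, whose intervals do not exclude a change.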

Other observations

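The genes whose pattern over the 10 libraries was most like that of a disallowed gene, once each group's mean was taken off, are given as a description with no test. They are the highest of 13065 correlations on log2(FPKM + 1), over libraries that share depth and cell makeup. For Oat they were Faap24 (r = 0.94), Prickle4 (0.94) and Il10rb (0.93). For Ldha they were Man2a1 (r = 0.95), Pole4 (0.94) and Klk1b4 (0.92), the last a member of the kallikrein family. For Hk1 they were Mcm2 (r = 0.95), a helicase subunit of DNA replication, Cartpt (0.93), a neuropeptide precursor, and Gimap9 (0.90). For Acot7 they were Stmn2 (r = 0.91), Dancr (0.91) and Cplx1 (0.91), of which Stmn2 and Cplx1 stand on the list of REST target genes. For Igfbp4 they were Cd14 (r = 0.91), a receptor of myeloid cells, Cfap45 (0.90) and Sema4a (0.89). For Neurog3 they were Rapgef3 (r = 0.93), Gm11696 (0.89) and Dhx16 (0.89).
Among the tested genes of the 10, the correlation over the same 10 libraries was highest between Ldha and Hk1 (r = 0.70), Hk1 and Acot7 (0.67) and Ldha and Neurog3 (0.64), and lowest between Hk1 and Oat (-0.42).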
